A study of Saccharomyces cerevisiae with 6 samples.

Results

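Sulfate assimilation and methionine metabolism in budding yeast were followed here through 36 named genes, taken by name from a list, of 6687 features in the table. All 36 were found. The strain was BY4741, a haploid of mating type a that lacks MET17, carrying either the empty vector pCM190 (control cells) or pCM190 with the PPZ1 open reading frame (PPZ1 cells), whose promoter is shut off by doxycycline. Overnight cultures in synthetic complete medium without uracil held 100 µg/ml of doxycycline, which was then washed away. Cells grew for 3.5 h from an OD600 of 0.2 to 0.55, were filtered, and spent 1 h in new medium holding glucose at 2% or at 0.25%, or galactose at 2%. Each of the 6 combinations of plasmid and carbon source gave 1 mRNA-Seq library, and the labels do not say that any stands for more than 1 culture. PPZ1 encodes a protein phosphatase, and the study asked how its excess alters the response to the carbon source.

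Yeast takes up sulfate, activates it with ATP and reduces it to sulfide. Sulfide is joined to a homoserine derivative by the MET17 enzyme to give homocysteine, which is methylated to methionine or converted to cysteine by transsulfuration. Methionine feeds S-adenosylmethionine, the cell's main methyl donor. The activator Met4 drives most genes of the pathway, through the DNA-binding proteins Cbf1, Met31 and Met32, and the ubiquitin ligase subunit Met30 restrains Met4 when sulfur compounds are plentiful. A strain without MET17 reduces sulfate but cannot pass the sulfide on, and lives on methionine from the medium. No MET17 read was counted in any of the 6 libraries.

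The DNA in front of these genes carried the letters bound by those factors more often than yeast promoters at large. The 500 bases before each start codon were read from the RefSeq R64 genome for all 36 genes and for 5966 genes in all, and searched on both strands for CACGTG (the core bound by Cbf1), AAACTGTG (the core bound by Met31 and Met32) and TGACTC (the core bound by Gcn4, the activator of amino acid synthesis genes). Within each of the 36 windows no match overlapped another, and a match describes letters in a window, not binding. The 57 matches lie at 56 distinct sites, because the windows of MHT1 and MMP1 hold the same AAACTGTG site. It is counted for both genes. CACGTG was present in 23 of the 36 windows (63.9%) and in 373 of 5966 windows (6.25%). AAACTGTG was present in 13 windows (36.1%), against 2.68% of all windows, and 9 windows held both (25.0%), against 0.436%. TGACTC was present in 13 windows (36.1%) against 12.6% of all windows. In 42 windows of genes for the synthesis of other amino acids the order was different, with TGACTC in 64.3% and CACGTG in 9.52%.

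The stretches below show the forms these matches take in genes whose levels are described later, with 12 bases on either side. Letters are on the strand of the gene, 5′ to 3′, and capitals mark any of the 3 motifs in either orientation. They lie at chrV:258224-258274 (HOM3), chrVII:599133-599162 (MUP1), chrIV:1454745-1454799 (SAM2), chrIX:268462-268509 (MET30), chrXII:17773-17804 (MMP1), chrXII:323198-323253 (SUL2), chrI:130571-130600 (CYS3) and chrV:237343-237372 (SAH1), with HOM3, SAM2 and SAH1 on the minus strand.
HOM3: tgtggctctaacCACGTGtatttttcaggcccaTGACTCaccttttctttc
MUP1: aactgccacagtTGACTCaagcggtgctac
SAM2: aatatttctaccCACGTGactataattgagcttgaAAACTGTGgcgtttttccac
MET30: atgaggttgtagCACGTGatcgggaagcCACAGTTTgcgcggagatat
MMP1: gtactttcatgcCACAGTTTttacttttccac
SUL2: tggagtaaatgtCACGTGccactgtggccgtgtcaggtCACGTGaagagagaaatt
CYS3: taattagccattCACGTGatctcagccagt
SAH1: gatatttctgtgCACGTGatctcgttggct

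HOM3 pairs the Cbf1 core with the Gcn4 core, whereas SAM2 and MET30 hold the Cbf1 core and the Met31 and Met32 core close together, and SUL2 repeats the Cbf1 core. The match in front of MMP1 lies in the 342 bases between MMP1 and MHT1, which are transcribed away from each other, so both genes share it. All 8 genes of sulfate activation and reduction had CACGTG. MET12, STR2, SAM4 and SAM3 had none of the 3 motifs. The plot of motif shares sets the 36 genes beside the other gene lists.

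**Figure D1:**
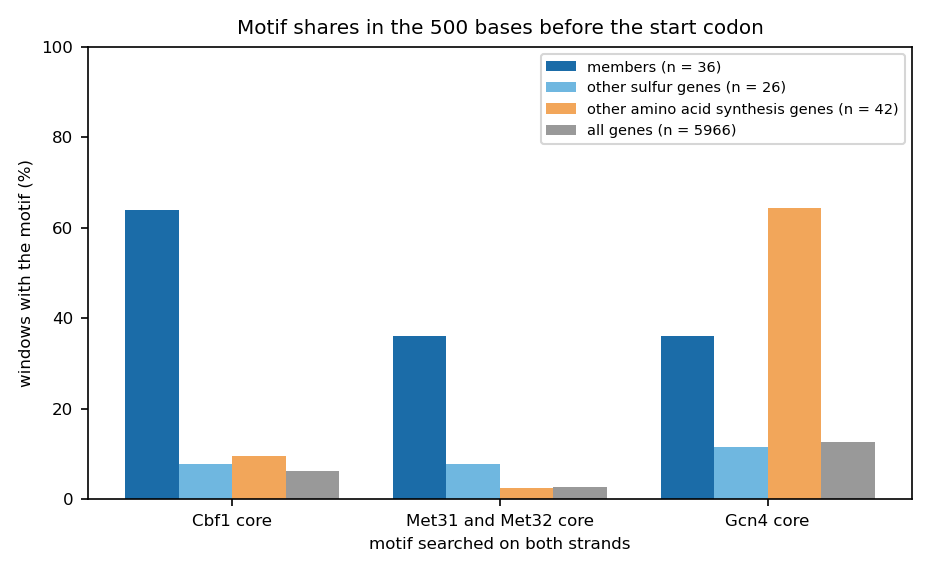
Share of 500-base windows before the start codon (y axis, %) that hold each of 3 motifs on either strand (x axis), for the 36 genes, 26 other sulfur genes, 42 other amino acid synthesis genes and all 5966 windows. The Cbf1 core is present in 63.9% of the 36 windows and in 6.25% of all windows, and the Gcn4 core is most frequent, at 64.3%, in front of the other amino acid synthesis genes.

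Levels are given as CPM, that is, counts per 1e6: the deposited values were multiplied by 1e6 over the largest library's total, which keeps the authors' scaling to total counts. A change is a log2 difference of CPM + 1 between 2 libraries, with a standard error that covers read counting only. Features were compared where the 2 libraries averaged at least 10 CPM, and called at 2-fold or more. With 1 library per condition no test can be made of a single comparison. Reads in features ran from 1845237, in PPZ1 cells in 0.25% glucose, to 6784469, in control cells in 0.25% glucose. PPZ1 mRNA stood at 75.0 to 94.3 CPM in control cells and at 2705 to 17798 CPM in PPZ1 cells, lowest in galactose. STE2, the pheromone receptor gene of a cells, stood at 145 to 592 CPM, and MF(ALPHA)1, a pheromone gene of alpha cells, at 0.737 to 2.45 CPM. The shallowest library also stood apart by gene length. Across all genes, the difference between PPZ1 and control cells in 0.25% glucose had a Spearman correlation of −0.69 with coding length, against −0.12 in 2% glucose and in galactose. Calls that rest on this library are therefore given also after removal of that trend by a running median. In bulk RNA, fewer cells of a kind cannot be told apart from less RNA per cell.

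The 36 genes together took 0.763% of the counted reads in control cells in 2% glucose, 0.791% in 0.25% glucose and 0.449% in galactose. In PPZ1 cells the shares were 0.837%, 0.647% and 0.458%. Galactose thus had the lowest share in both kinds of cells. Per kilobase of coding sequence, SAH1 had the highest mean level over the 6 libraries, 684 CPM per kb, ahead of HOM2 at 592 and HOM6 at 587. SUL1 had the lowest at 2.01 CPM per kb, and its feature was below the minimum in all 7 comparisons. HOM6 was the steadiest gene, with its highest library 1.25 times its lowest. The low gene SUL1 spanned 6.05 times, from 1.40 to 8.47 CPM, and MET6, HOM3 and MUP1 spanned 4.06, 4.00 and 3.94 times. The plot of levels shows all 36 genes in the 6 libraries.

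**Figure D2:**
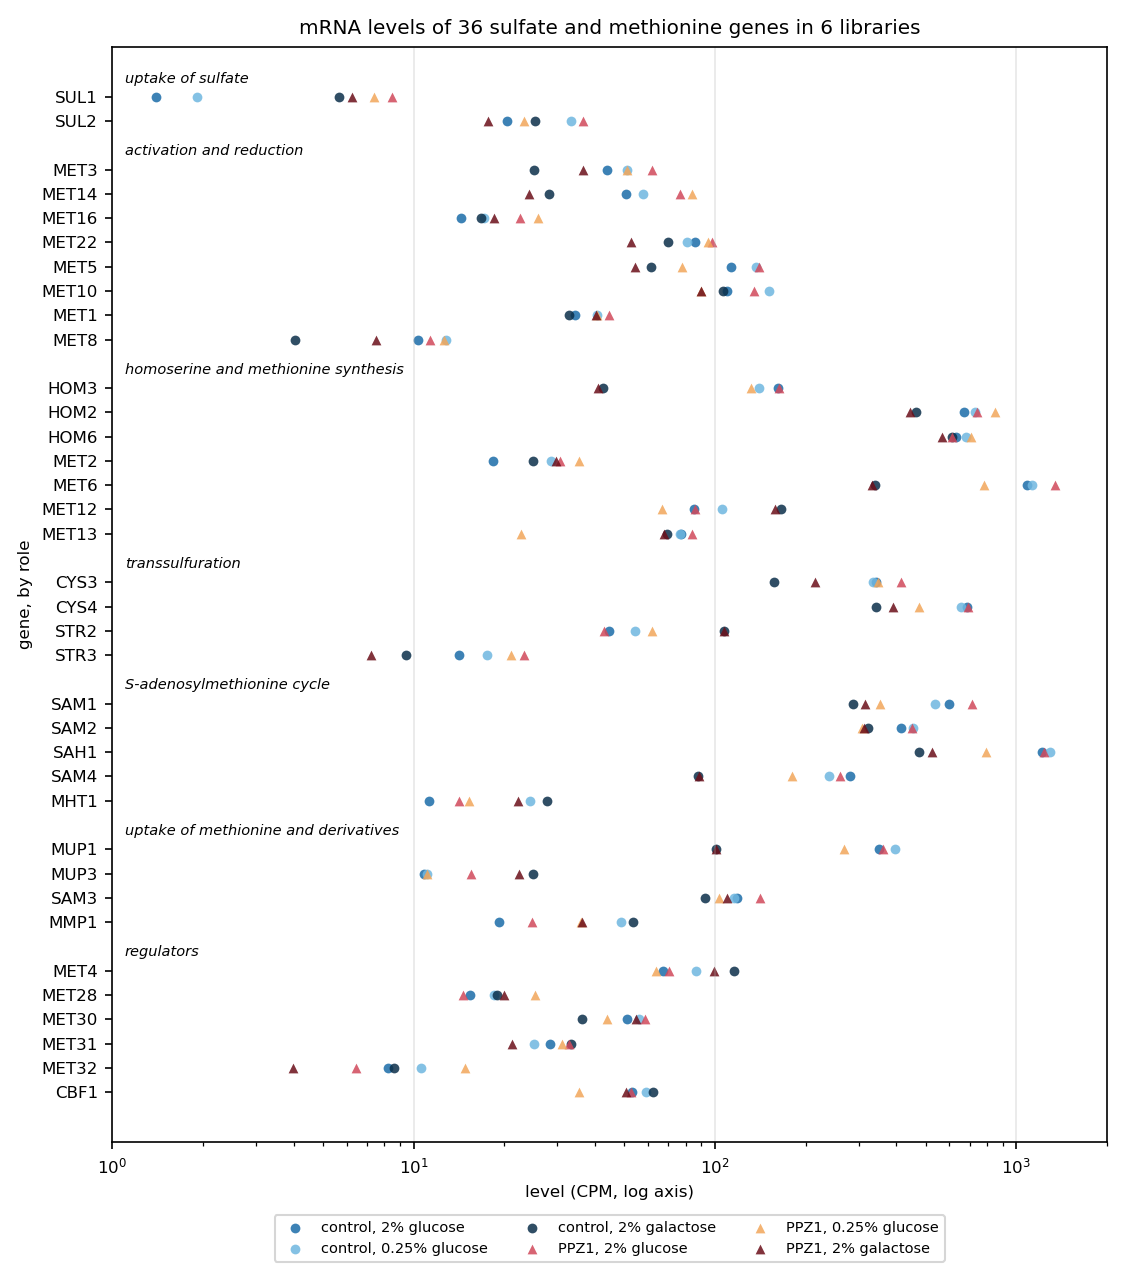
Level of each of the 36 genes (y axis, ordered by role) in CPM on a log axis (x axis), with 1 point per library; circles are control cells and triangles PPZ1 cells. For MET6, HOM3 and MUP1 the galactose libraries of both kinds of cells lie far to the left of the glucose libraries, and for MET13 the library of PPZ1 cells in 0.25% glucose stands alone at 22.7 CPM.

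Galactose in place of 2% glucose changed the pathway most, and unevenly. In control cells 33 of the genes could be compared, of which 8 were at least 2-fold lower and 4 at least 2-fold higher, where 19.7% of all genes were lower and 23.0% higher. In PPZ1 cells 10 of 33 were lower and 1 was higher, beside 21.1% and 19.8% of all genes. The share of lower members, 24.2% in control cells and 30.3% in PPZ1 cells, was thus close to or somewhat above the background, and that of higher members, 12.1% and 3.03%, below it. The median change was −0.29 in control cells, against 0.06 for all genes, and −0.59 in PPZ1 cells, against −0.08. Genes for other amino acids, 43 in the list, had medians of −0.59 and −0.67.

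Because both kinds of cells were shifted, a model in which plasmid and carbon source act additively leaves 2 residual degrees of freedom, with the departure of the cells from a common response as its error. In this fit on the recovered reads (edgeR's quasi-likelihood test with Benjamini-Hochberg adjustment over 5382 genes), galactose changed 20 of the 33 members in it, 6 upwards and 14 downwards, at an adjusted p under 0.05. Of all genes, 32.9% passed upwards and 32.9% downwards. Without the 0.25% glucose libraries, which leaves 1 residual degree of freedom, 26 members passed (SUL2, MET10, MET13, SAM2, SAM3 and MET30 in addition, all downwards) and 83.9% of all genes. The adjusted p-values below are from this fit, and they do not cover variation between cultures.

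In sulfate uptake, the permease gene SUL2 stood at 20.5, 33.3 and 25.4 CPM in control cells (here and below in the order 2% glucose, 0.25% glucose, galactose) and at 36.5, 23.2 and 17.7 CPM in PPZ1 cells. Its level in galactose was above that in 2% glucose in control cells and below it in PPZ1 cells, with changes of 0.30 ± 0.19 and −1.01 ± 0.19, and the change common to both did not pass (adjusted p = 0.307). SUL1, the other sulfate permease gene, was counted with 8, 13 and 21 reads in control cells and 42, 14 and 25 reads in PPZ1 cells.

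In activation and reduction, MET14, the kinase that makes phosphoadenylylsulfate, stood at 50.6, 57.6 and 28.1 CPM in control cells and at 76.5, 83.8 and 24.2 CPM in PPZ1 cells. The galactose libraries were the lowest in both kinds of cells, with changes of −0.83 ± 0.16 and −1.62 ± 0.16 (adjusted p = 0.00154). MET5, a subunit of sulfite reductase, was likewise lowest in galactose, at 61.3 CPM against 113 CPM in 2% glucose in control cells and 54.1 against 139.6 CPM in PPZ1 cells. Its 0.25% glucose levels were 137 and 78.0 CPM, and the galactose changes were −0.88 ± 0.11 and −1.35 ± 0.11 (adjusted p = 0.00235). MET3, the ATP sulfurylase that starts the activation, and MET22, which removes the phosphoadenosine phosphate left over from reduction, also fell in the fit, by 0.76 and 0.56 on the log2 scale (adjusted p = 0.0076 and 0.043), the latter not past the threshold with DESeq2 (adjusted p = 0.078). MET16, MET10 and MET1 did not pass, with fitted values from −0.31 to −0.02, so the sulfite reductase partner of MET5 was not called. MET8 was below the minimum here, at 4.05 to 12.8 CPM over the 6 libraries.

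In the branch from aspartate to homoserine and methionine, HOM3 (coding sequences are given by their R64 coordinates; YER052C, chrV:256375-257958), the aspartate kinase at its entry, stood at 162, 140.0 and 42.4 CPM in control cells and at 164, 132 and 40.9 CPM in PPZ1 cells. The 2 galactose libraries lay far below the 4 glucose libraries, by 1.91 ± 0.12 and 1.98 ± 0.12 below 2% glucose (adjusted p = 2.6e-05). MET6 (YER091C, chrV:339864-342167), the methionine synthase, stood at 1082, 1129.6 and 340.0 CPM in control cells and at 1343, 782 and 331 CPM in PPZ1 cells. Its galactose levels were again the lowest, with changes of −1.67 ± 0.04 and −2.02 ± 0.04 (adjusted p = 9.06e-05). The middle steps moved less. HOM2, the semialdehyde dehydrogenase, stood at 671, 731 and 464 CPM and at 738, 851 and 445 CPM, and fell by 0.61 in the fit (adjusted p = 0.0188), although 76 bp of its feature overlap another feature on the same strand. HOM6, the homoserine dehydrogenase, changed by −0.05 ± 0.04 and −0.11 ± 0.04 and did not pass (adjusted p = 0.787).

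The methylenetetrahydrofolate reductases MET12 and MET13 parted in galactose. MET12 stood at 84.9, 105 and 166 CPM in control cells and at 85.7, 66.9 and 158 CPM in PPZ1 cells, and MET13 at 77.0, 76.4 and 69.4 CPM and at 83.9, 22.7 and 67.8 CPM. MET12 was highest in both galactose libraries, with changes of 0.96 ± 0.09 and 0.87 ± 0.09 just under the 2-fold line (adjusted p = 0.00228), while MET13 stayed near its 2% glucose level. The difference between the 2 genes was 1.11 ± 0.14 in control cells and 1.18 ± 0.14 in PPZ1 cells. This and the other contrasts between related genes given here were chosen after their values were seen.

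In transsulfuration, the genes of the way from homocysteine to cysteine fell in galactose while a gene of the reverse way rose. CYS3, cystathionine gamma-lyase, stood at 343, 335 and 157 CPM in control cells and at 414, 348 and 215 CPM in PPZ1 cells. CYS4, cystathionine beta-synthase, stood at 688, 657 and 341 CPM and at 691, 476 and 389 CPM. Both had their lowest levels in galactose, with changes of −1.12 ± 0.07 and −0.94 ± 0.06 for CYS3 (adjusted p = 0.00109) and −1.01 ± 0.05 and −0.83 ± 0.04 for CYS4 (adjusted p = 0.00367).

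STR2 (YJR130C, chrX:665218-667137), the cystathionine gamma-synthase that makes cystathionine from cysteine, stood at 44.5, 54.1 and 107 CPM in control cells and at 43.0, 61.6 and 107 CPM in PPZ1 cells. It was the only member at least 2-fold higher in galactose in both kinds of cells, by 1.25 ± 0.11 and 1.29 ± 0.12 (adjusted p = 0.000307). STR3, the beta-lyase of the same reverse way, went down instead, from 14.2 to 9.45 CPM in control cells and from 23.2 to 7.23 CPM in PPZ1 cells, with 17.5 and 21.1 CPM in 0.25% glucose (fitted change −1.11, adjusted p = 0.0103). With levels divided by coding length, the ratio of STR2 to STR3 thus went from 2.28 in 2% glucose to 8.28 in galactose in control cells. In PPZ1 cells it went from 1.35 to 10.8.

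In the S-adenosylmethionine cycle, SAH1 (YER043C, chrV:235770-237119), which hydrolyses S-adenosylhomocysteine, stood at 1215, 1291 and 476 CPM in control cells and at 1239, 792 and 526 CPM in PPZ1 cells. SAM4, which uses S-adenosylmethionine to methylate homocysteine, stood at 280.1, 238 and 87.7 CPM and at 260.3, 180.2 and 88.2 CPM. For both genes galactose gave the lowest level in each kind of cells, with fitted changes of −1.27 (adjusted p = 0.001) and −1.60 (adjusted p = 8.43e-05).

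The S-adenosylmethionine synthetases SAM1 and SAM2 are close paralogs, so reads may be shared between them. SAM1 stood at 599, 537 and 286 CPM in control cells and at 711, 353 and 314 CPM in PPZ1 cells, and SAM2 at 415, 455 and 322 CPM and at 452, 309 and 312 CPM. At coding lengths of 1149 and 1155 bp, SAM1 was the higher of the pair in every glucose library. With levels divided by coding length, the ratio of SAM2 to SAM1 went from 0.69 in 2% glucose to 1.12 in galactose in control cells. In PPZ1 cells it went from 0.633 to 0.988. SAM1 fell in galactose (fitted change −1.10, adjusted p = 0.00168), and the fitted change of SAM2, −0.43, did not pass (adjusted p = 0.0749).

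MHT1 methylates homocysteine from S-methylmethionine, the companion of SAM4, and MMP1 takes up S-methylmethionine. MHT1 stood at 11.2, 24.3 and 27.8 CPM in control cells and at 14.1, 15.3 and 22.2 CPM in PPZ1 cells. MMP1, its divergent neighbour, stood at 19.3, 48.9 and 53.4 CPM and at 24.6, 35.8 and 36.1 CPM. Both genes had their lowest level in 2% glucose in each kind of cells. In galactose MHT1 was higher by 1.24 ± 0.22 in control cells and 0.62 ± 0.22 in PPZ1 cells (adjusted p = 0.00817), and MMP1 by 1.43 ± 0.17 and 0.54 ± 0.17 (adjusted p = 0.00357). In log2 change MHT1 lay 2.90 ± 0.23 above SAM4 in control cells and 2.17 ± 0.23 in PPZ1 cells, and MMP1 lay 1.78 ± 0.19 and 0.90 ± 0.19 above SAM3, the S-adenosylmethionine permease gene.

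Among the methionine permeases, MUP1 (YGR055W, chrVII:599417-601141), the high-affinity permease gene, stood at 349.6, 395 and 101 CPM in control cells and at 361, 267 and 100.4 CPM in PPZ1 cells. MUP3, a low-affinity permease gene, stood at 10.9, 11.1 and 24.8 CPM and at 15.5, 11.1 and 22.4 CPM. The galactose libraries were the lowest for MUP1 and the highest for MUP3 in both kinds of cells, with fitted changes of −1.80 (adjusted p = 6.15e-05) and 0.88 (adjusted p = 0.0128). SAM3 stood between 92.6 and 141 CPM in the 6 libraries and did not pass (adjusted p = 0.124).

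The regulators moved little. MET4 was the only one called in galactose over all 6 libraries, at 67.4, 86.7 and 116 CPM in control cells and 70.2, 63.7 and 98.9 CPM in PPZ1 cells (fitted change 0.66, adjusted p = 0.0102). MET30, MET28, CBF1 and MET31 had fitted changes from −0.26 to 0.38 and did not pass. MET31, the zinc-finger partner of MET32, stood at 28.4, 25.1 and 33.2 CPM in control cells and at 32.9, 31.1 and 21.2 CPM in PPZ1 cells. MET32 stood at 8.23, 10.6 and 8.64 CPM and at 6.46, 14.8 and 3.99 CPM, under the minimum in most comparisons.

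**Figure D3:**
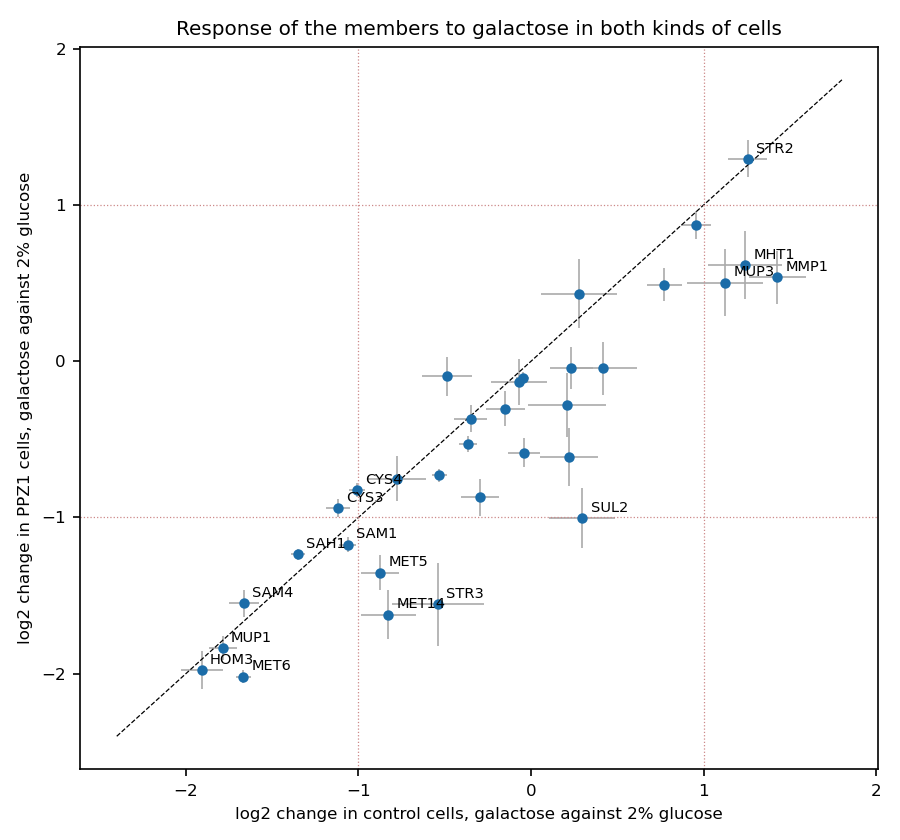
Log2 change from 2% glucose to galactose for the 33 genes compared, in control cells (x axis) and in PPZ1 cells (y axis); bars are standard errors from read counting, the dashed line marks equal changes and the dotted lines 2-fold. HOM3, MET6, MUP1 and SAM4 lie at the lower left and STR2 at the upper right, while SUL2 lies at 0.30 in control cells and at −1.01 in PPZ1 cells.

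Of the galactose changes of the 33 genes, 28 had the same sign in both kinds of cells (84.8%), against 93.1% of 5360 genes. At least 2-fold lower in both were 6 genes (HOM3, MET6, SAM1, SAH1, SAM4 and MUP1), a share of 18.2% beside 963 of the 5360 genes, a like share, and STR2 was higher in both, 3.03% beside 19.1%. Pearson's r across the genes was 0.904, beside 0.984 across 5360 genes, as a description since genes are not independent replicates and the genes of each comparison share libraries. Members with CACGTG in the window had a median of −0.29 in control cells and of −0.59 in PPZ1 cells. Members without it had medians of −0.25 and −0.49, so the medians lay close together. Among the members with TGACTC the medians were −0.41 and −0.80, against −0.07 and −0.37 without it. For AAACTGTG they were −0.43 and −0.33 with it and −0.15 and −0.61 without it, so the order differed between the kinds of cells. A link between motif and change was not tested.

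Low glucose left most of the pathway in place. In control cells 34 genes were compared, of which 2 were at least 2-fold higher in 0.25% than in 2% glucose and 0 lower, where 0.897% of all genes were higher and 0.134% lower. These 2 were the divergent neighbours MMP1 and MHT1, by 1.30 ± 0.15 and 1.05 ± 0.20. The median of the 34 genes, 0.17, was close to that of all genes, 0.13. SUL2 and MET2, the homoserine acetyltransferase gene, came next at 0.68 ± 0.16 and 0.61 ± 0.17. The galactose and low-glucose changes share the 2% glucose library as baseline.

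In PPZ1 cells 35 genes were compared, of which 1 was at least 2-fold higher and 2 were lower, beside 1.67% and 4.76% of all genes. MET32 was higher by 1.08 ± 0.34 on 32 and 28 reads. MET13 was lower by 1.84 ± 0.22 and SAM1 by 1.01 ± 0.06. With the length trend removed, MET13 stood at −1.57, SAM1 at −0.94 and MET32 at 0.80. The median was −0.27, against −0.09 for all genes, and −0.09 with the trend removed. MMP1 and MHT1 changed by 0.52 ± 0.21 and 0.11 ± 0.30 there. No member passed in the additive fit for 0.25% glucose (edgeR, adjusted p under 0.05), where 0.334% of all genes passed upwards and 0.111% downwards, and 3 of 33 members (9.09%) had an unadjusted p under 0.05, beside 6.45% of all genes. DESeq2 called 0 members as well. The lowest adjusted p among members was 0.297, for MMP1, with a fitted change of 0.92.

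In 2% glucose every member compared lay within 2-fold between PPZ1 and control cells, most of them slightly higher in PPZ1 cells. Of 34 genes compared 0 were 2-fold higher and 0 lower, beside 0.115% and 0.0576% of all genes. The change was above 0 for 29 of the 34 genes (85.3%), against 42.7% of all genes, with a median of 0.20 against −0.03. The largest were SUL2 at 0.80 ± 0.16, MET2 at 0.71 ± 0.18, STR3 at 0.67 ± 0.20, MET16, the phosphoadenylylsulfate reductase gene, at 0.62 ± 0.20, MET14 at 0.59 ± 0.11 and MET3 at 0.49 ± 0.12. All 8 genes of activation and reduction were above 0, with a median of 0.33. The other sulfur genes had a median of 0.08 and the other amino acid synthesis genes 0.07. SUL1 rested on 8 reads in control cells and 42 in PPZ1 cells, at 1.40 and 8.47 CPM, a log2 difference of 1.98 ± 0.36 under the minimum level.

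**Figure D4:**
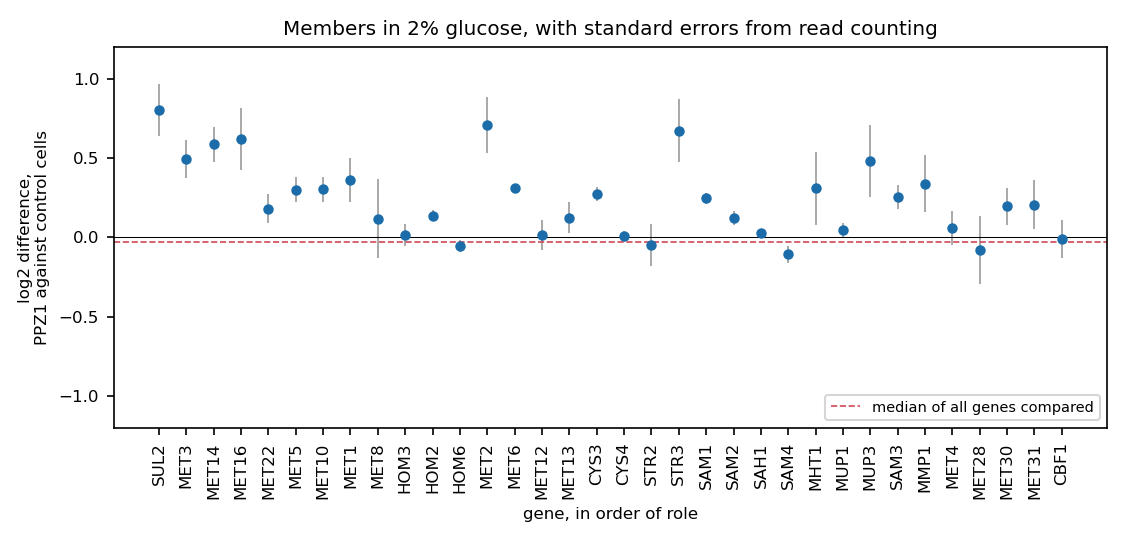
Log2 difference between PPZ1 and control cells in 2% glucose (y axis) for the 34 genes compared, in order of role (x axis), with standard errors from read counting; the dashed line is the median of all genes, −0.03. Of the 34 points 29 lie above 0, led by SUL2 at 0.80 and MET2 at 0.71, and none reaches 2-fold.

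In galactose 32 genes were compared between PPZ1 and control cells, 0 were 2-fold higher and 0 lower, beside 0.0187% and 0.0561% of all genes, and the median was −0.04, against −0.13 for all genes. With median-of-ratios scaling the member median was 0.11, against 0.02 for all genes. MET30 at 0.59 ± 0.15, MET3 at 0.52 ± 0.18 and CYS3 at 0.45 ± 0.08 lay highest, and MET31 at −0.62 ± 0.20 and MMP1 at −0.55 ± 0.15 lowest. MET3, MET2 and CYS3 were above control cells in both 2% glucose and galactose, and SUL2 was above in 2% glucose only, at −0.50 ± 0.22 in galactose.

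No member passed for PPZ1 in the additive fit over all 3 carbon sources (edgeR, adjusted p under 0.05), where 1 gene passed upwards, 0.0186% of all genes, and 0.0% downwards. At an unadjusted p under 0.05 there were 6 members, MET3, MET14, MET16, MET1, MET2 and CYS3, all with a fitted change above 0. They were 18.2% of the 33, beside 227 genes or 4.22% of all. With median-of-ratios factors the same edgeR fit had 6 members and 247 of 5382 genes there. Scaled by total reads only, without TMM, it had 2 of 33 members and 353 genes, so the excess of members depended on the scaling. DESeq2 called 0 members. Leaving out the 0.25% glucose libraries, which include the library with the length trend, leaves 1 residual degree of freedom. Departures of those libraries from a common response then no longer enter the error. In that fit 5 members passed, all higher in PPZ1 cells, where 1.15% of all genes passed upwards. They were MET2 at 0.59, MET3 at 0.58, MET30 at 0.44, CYS3 at 0.43 and SAM3 at 0.33, with adjusted p from 0.00103 for CYS3 to 0.0199 for MET30.

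In 0.25% glucose the difference between the cells followed gene length across all genes, but not in every role group. Of 35 genes compared 0 were at least 2-fold higher in PPZ1 cells and 1 was lower, beside 0.801% and 9.96% of all genes. The median was −0.16 as scaled by the authors, but 0.09 with median-of-ratios scaling and 0.18 with the length trend removed, so its sign depends on the scaling. The medians of all genes were −0.24, 0.01 and 0.0 in the same order, below the member median in each setting. Across the 35 genes the Spearman correlation with coding length was −0.55, a description over genes of the same 2 libraries. The long sulfite reductase genes, MET5 at 4329 bp and MET10 at 3108 bp, had differences of −0.80 ± 0.13 and −0.75 ± 0.12, and of 0.05 and 0.08 with the trend removed. The 5 genes of the S-adenosylmethionine cycle, a group singled out after its values were seen, were all lower in PPZ1 cells. Their median was −0.60, and −0.35 with median-of-ratios scaling and −0.39 with the trend removed. The other role groups had medians from 0.15 to 0.37 with the trend removed.

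MET13 (YGL125W, chrVII:272520-274322) was the member 2-fold lower. It had 43 reads in PPZ1 cells in 0.25% glucose, a level of 22.7 CPM with a 95% counting interval of 16.4 to 30.5 CPM, and 76.4 CPM in control cells, with an interval of 69.9 to 83.2 CPM. The other 5 libraries lay between 67.8 and 83.9 CPM, so this library stood alone. The difference was −1.71 ± 0.22, and −1.19 with the length trend removed, below which lay 62 of 5243 genes. The genes around it, CWC23, SOH1, SCS3, MON1 and RPS2, had differences from −0.67 to 0.11. CBF1, a gene of 1056 bp, had a difference of −0.73 ± 0.19, from 59.3 CPM in control cells to 35.3 CPM in PPZ1 cells. With the trend removed it stood at −0.67, below which lay 301 of 5243 genes. On the other side STR2 stood at 0.75 and MET2 at 0.66 with the trend removed, above which lay 162 and 218 genes.

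**Figure D5:**
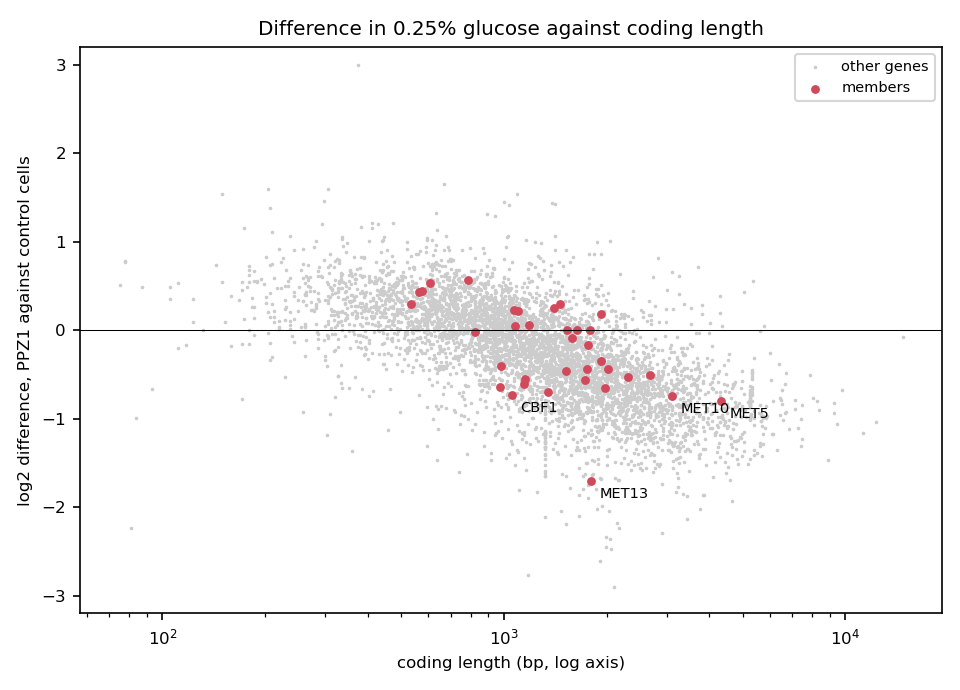
Log2 difference between PPZ1 and control cells in 0.25% glucose (y axis) against coding length in bp on a log axis (x axis), for the 35 members compared and all other genes. Differences fall with length over all genes, MET5 and MET10 lie within the band of long genes, and MET13 lies below it at −1.71.

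Over all 7 comparisons, 18 of the 36 genes were at least 2-fold changed in some comparison and 18 in none, among them SUL1, which was under the minimum throughout. The 18 genes were 51.4% of the 35 compared at least once, beside 52.3% of all 5527 genes so compared, a share near the background. Of the genes of activation and reduction, MET14 and MET5 alone reached 2-fold, and of the regulators MET32 alone. In the S-adenosylmethionine cycle all members but SAM2 did.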

How the data were processed

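mRNA-Seq values for 6687 features in 6 libraries were analysed, grouped by the plasmid and carbon source in their labels. Per the labels and notes, the authors extracted total RNA (RiboPure-Yeast kit), prepared TruSeq LT libraries, aligned reads with Bowtie2 (version not given) and counted them in SeqMonk 0.32.1 over coding sequences extended by 50 bp at either end, on the opposite strand and without duplicates. No source used here names the genome build. Of the feature names, 6001 were found among RefSeq R64 genes and 5968 had the same chromosome, start and end, so promoter windows were read from R64.

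The deposited values are read counts in the largest library and, in the others, a signal that the authors scaled to the largest total by 1 factor per library. Dividing by it gave whole reads within 0.01 for 100% of values. CPM kept the authors' scaling. A pseudocount of 1 CPM and a minimum mean of 10 CPM were used, and standard errors and intervals are Poisson and cover counting error only. The additive fit used edgeR 4.0.16 with TMM on the recovered reads in R 4.3.3, and DESeq2 1.42.0 as an alternative. It is not the study's own design, which used a 2-fold threshold and no test.

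The members and lists were chosen with earlier results of these data known. Named with values in every library were members at least 2-fold changed in any comparison and, per role group, the member with the highest level per length and that with the largest change. From the other sulfur genes, the 4 with the largest change were named with their galactose changes. Genes outside this rule were named after their values were seen. Alternatives tried were median-of-ratios scaling, no minimum and a minimum of 50 CPM, a pseudocount of 5 CPM, removal of the length trend (a running median over 5% of the genes), and for the fit no TMM, median-of-ratios factors, every gene with a read, DESeq2 and leaving out the libraries of 1 carbon source.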

Additional observations from a re-analysis of the deposited data

Results flagged for a closer look

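For 8 genes the response to 0.25% glucose went up in control cells and down in PPZ1 cells, each with a 95% counting interval that did not reach 0, or 23.5% of the 34 compared, beside 14.4% of all genes. Over all genes 43.8% had the same sign in both kinds of cells, and 55.9% of the members. The difference of the responses, PPZ1 minus control, was −1.31 for SUL2, −1.10 for MET5, −1.05 for MET10, −0.84 for MET6, −0.73 for SAH1, −0.68 for SAM2, −0.66 for MET12 and −0.61 for MUP1 on the log2 scale. With 1 library per condition the difference was not tested. Both responses moved with coding length across all genes, with Spearman correlations of 0.24 in control cells and −0.60 in PPZ1 cells. With the length trend removed the differences were −0.64 for SUL2, −0.48 for SAM2, −0.45 for SAH1, −0.35 for MET5, −0.32 for MET10, −0.20 for MET6 and −0.15 for MET12 and MUP1. The control responses then turned negative for MET6 (−0.12) and SAH1 (−0.04) and were near 0 for SAM2 and MUP1 (0.003 and 0.01). So 6 of the 8 genes kept their 2 signs (75.0%), beside 491 of 744 such genes among all genes (66.0%), a share not far from it.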

How the results depend on the processing

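No paired analysis was possible because the labels give no replicate numbers to block on. The additive fit compares the plasmids within each carbon source. Of 29 calls of a member past 2-fold, 26 held with median-of-ratios scaling and 24 each with a pseudocount of 5 CPM and with the length trend removed. Lost in all 3 settings were SUL2 in galactose in PPZ1 cells, MHT1 in 0.25% glucose in control cells and SAM1 in 0.25% glucose in PPZ1 cells, and in the latter 2 settings also MUP3 in galactose in control cells and MET32 in 0.25% glucose in PPZ1 cells. With a minimum of 50 CPM, 20 calls had a value and all 20 held. No call reversed.

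By comparison, higher members in galactose in control cells went from 4 to 1 with a minimum of 50 CPM. In 0.25% glucose in control cells they went from 2 to 1 with median-of-ratios scaling, a pseudocount of 5 CPM or the length trend removed, and to 0 with a minimum of 50 CPM. In PPZ1 cells in 0.25% glucose, higher members went from 1 to 0 with a minimum of 50 CPM, a pseudocount of 5 CPM or the trend removed, and lower members from 2 to 1 with median-of-ratios scaling, a pseudocount of 5 CPM or the trend removed. For PPZ1 against control, higher members went from 0 to 1 with no minimum in 2% and in 0.25% glucose, and lower members in 0.25% glucose from 1 to 0 with a minimum of 50 CPM. In the additive fit, members called for galactose went from 20 to 26 and genes from 3541 to 4516 without the 0.25% glucose libraries, and lower members from 14 to 13 with DESeq2, where MET22 was lost, and with median-of-ratios factors. Genes called for 0.25% glucose went from 24 to 52 with DESeq2 and to 38 without the galactose libraries. Genes called for PPZ1 went from 1 to 3 with DESeq2 and to 92 without the 0.25% glucose libraries, where members went from 0 to 5. The cause of these changes was not tested, except that a higher minimum leaves fewer genes to compare.

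At 10 CPM a gene had 19.0 reads in PPZ1 cells in 0.25% glucose and 67.8 reads in control cells, so low members such as SUL1, MET8, MET32, STR3 and MUP3 carry the widest counting errors there.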

Other observations

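Of 24 other sulfur genes compared in galactose, 6 were at least 2-fold higher and 6 lower in control cells (25.0% each, beside 23.0% and 19.7% of all genes), with a median of 0.26. In PPZ1 cells 5 were higher and 7 lower (20.8% and 29.2%, beside 19.8% and 21.1%), with a median of −0.03. These shares lie near those of all genes. ECM38, which breaks down glutathione, was higher by 1.98 ± 0.11 in control cells and 1.85 ± 0.11 in PPZ1 cells, from 38.3 to 154 CPM and from 41.2 to 151 CPM. AGP3, an amino acid permease gene, was higher by 1.72 ± 0.25 and 1.57 ± 0.25, and YCT1, the cysteine permease gene, by 1.49 ± 0.15 and 1.47 ± 0.16. MRI1, an isomerase of the methionine salvage pathway, was lower by 1.76 ± 0.11 and 1.62 ± 0.10, from 194 to 56.7 CPM and from 184 to 59.1 CPM. In the same pathway MEU1 and MDE1 changed by −1.09 and −1.34 in control cells, while ADI1 changed by 1.18, chosen after their values were seen.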
